A study of Mus musculus with 8 samples.

Results

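The Kruppel-like factors are DNA-binding proteins of the zinc finger class. The 10 genes described here are Klf2, Klf3, Klf4, Klf5, Klf6, Klf7, Klf9, Klf10, Klf13 and Klf15, named with earlier results of these data known and matched by symbol among the 52535 gene symbols of the expression table. The table also holds 7 other Klf symbols, of which 1 had reads. At least 1 read was found for 9 of the 10 in some library, and 5 of the 10 had a mean of at least 1 FPKM (fragments per kilobase of exon, scaled by a library size) over the 8 libraries, the limit set for testing. The libraries hold RNA of satellite cells (SCs), the resident stem cells of skeletal muscle, taken from male C57B/6J mice that entered the experiment at 10 weeks of age. The 4 control libraries come from sedentary, untrained mice. The 4 exercise libraries come from mice trained on a treadmill for 4 weeks, on 4 days a week, for 30 min a day at 12 m/min. No genetic change was made in either group. The cells were sorted as negative for CD45, CD11b, CD31 and Sca1 and positive for CD34 and integrin alpha 7, and about 800 of them were amplified for each library with a single-cell kit. The question put to the 10 genes was whether their levels differed between the SCs of exercise and control mice.

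All members of the family carry an array of C2H2 zinc fingers near the carboxyl end that binds GC-rich and CACCC sequences in promoters, and differ in the part before it, which recruits activators or repressors. Klf2, Klf4, Klf5, Klf6 and Klf7 act mostly as activators, Klf3 as a repressor through CtBP, and Klf9, Klf10 and Klf13 as repressors through Sin3. Klf15 is a glucocorticoid-induced regulator of amino acid and lipid use in muscle, and several members, Klf2, Klf4, Klf6, Klf9 and Klf10 among them, are early response genes whose RNA rises within a short time of stress, serum or hormones, tissue dissociation included.

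The libraries need a description before the values. Reads on genes numbered 2339966 to 3013354 in the control libraries and 1011737 to 1200221 in the exercise libraries, with 5169 to 7307 and 2348 to 3289 genes detected. Mitochondrial transcripts took 2.09% to 15.3% of the control reads, 7.85% and 7.56% of those of exercise 1 and 2, 50.2% in exercise 3 and 68.7% in exercise 4. The library size behind the deposited FPKM was not the number of reads on genes. The reads were 0.633 to 1.02 times the size implied by the values in control 1 to 4 and exercise 1 and 2, 1.08 times in exercise 3 and 4.01 times in exercise 4, so that 1 read stands for several-fold more FPKM in exercise 4 than in any other library. RPM (reads of a gene, scaled to the same total of reads on genes in each library) is given beside FPKM where the 2 scales differ. That total includes the mitochondrial reads, so RPM lowers all other genes in exercise 3 and 4. Of 10 SC markers 6 had reads, with a summed level of 23.4 to 93.9 FPKM, and the defining markers Pax7, Cdh15, Itga7 and Calcr were at 0 in every library, so the labelled cell type rests on the sort. All 8 fibro-adipogenic markers had reads, Dcn the most, with a summed level of 1860 to 3189 FPKM in control and 1565 to 2375 FPKM in exercise, and so had 3 of 8 smooth muscle and pericyte markers, at 2.88 to 46.1 FPKM in control and 5.72 to 89.3 FPKM in exercise. All 8 immune markers were at 0, 3 of 10 endothelial markers had reads, and all 9 myofibre markers had reads, with a summed level of 32676 to 56115 FPKM in control and 19592 to 59419 FPKM in exercise. Not every library looked like a sample of its own. The reads of exercise 1 and 2 gave a chi-square of 3.86 for each degree of freedom, more than counting noise, where the 11 other pairs within a group gave 82.6 to 711. Genes other than the 10 put exercise 3 at 0.299 of exercise 1 plus 0.677 of exercise 4, and control 4 at 0.281 of control 1 plus 0.714 of control 3. The differences of the 5 genes tested are therefore also given with exercise 1 and 2 averaged as 1 sample and control 4 and exercise 3 left out. In that setting 3 control samples stand against 2, an exact permutation p cannot be below 0.1, and 0 of all genes tested passed in limma.

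The zinc finger part is the region in which the members are most alike, so it was examined first for how far reads of one member could be counted for another. A 90-base coding stretch that begins at the linker before the second finger was read from the GENCODE M21 transcripts of all 10 genes, and 33 of its 90 bases were identical in all 10. These 33 bases are in capitals in the stretches of 7 members below, written 5′ to 3′ on the coding strand.
Klf2: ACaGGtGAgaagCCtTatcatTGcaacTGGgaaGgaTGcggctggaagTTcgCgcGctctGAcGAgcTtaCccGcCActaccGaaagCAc
Klf4: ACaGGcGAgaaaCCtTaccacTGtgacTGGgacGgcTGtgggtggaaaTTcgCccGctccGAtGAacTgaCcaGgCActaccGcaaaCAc
Klf6: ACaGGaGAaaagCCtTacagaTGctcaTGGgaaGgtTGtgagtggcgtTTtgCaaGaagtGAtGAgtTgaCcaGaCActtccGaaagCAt
Klf7: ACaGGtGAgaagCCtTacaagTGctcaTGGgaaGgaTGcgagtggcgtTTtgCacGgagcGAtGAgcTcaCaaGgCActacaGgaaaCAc
Klf9: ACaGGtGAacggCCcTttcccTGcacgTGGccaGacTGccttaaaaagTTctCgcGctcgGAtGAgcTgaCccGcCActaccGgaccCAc
Klf10: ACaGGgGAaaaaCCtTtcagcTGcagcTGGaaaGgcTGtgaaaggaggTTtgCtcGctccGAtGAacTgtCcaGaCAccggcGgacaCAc
Klf15: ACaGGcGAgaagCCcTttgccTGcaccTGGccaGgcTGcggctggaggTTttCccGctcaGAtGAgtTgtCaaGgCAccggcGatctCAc
Against Klf2, 71 of the 90 bases were identical in Klf5, 70 in Klf4 and 68 in Klf3, 61 in Klf6, 64 in Klf9 and 59 in Klf10. In 9 of the 10 genes an exon boundary fell after the first 4 bases of the stretch, and in Klf15 it fell after 47 bases. Over whole transcripts, the longest exact run shared by any of the 45 pairs of members was 26 bases, between Klf6 and Klf7, and 0 pairs shared a run of 150 bases, the read length. The genes that overlap a member in the annotation had 0 reads in all 8 libraries.

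Promoter sequence was found for 8 of the 10 genes in RefSeq (GRCm38.p6), all but Klf5 and Klf10. The promoters of the 3 members with the most reads are shown, since these 3 carry nearly all of the family's signal and follow different patterns across the libraries. The windows are chr8:72318812-72319032 for Klf2, chr13:5861239-5861481 for Klf6 and chr19:23140976-23141225 for Klf9, all on the plus strand and ending just before the first transcript base in RefSeq or GENCODE M21, whichever comes first. Capitals mark, on either strand, the CACCC box (CACCC), the GC box (GGGCGG) and the MEF2 consensus, the site of the muscle and endothelial MEF2 factors that drive Klf2 downstream of the kinase ERK5.
Klf2: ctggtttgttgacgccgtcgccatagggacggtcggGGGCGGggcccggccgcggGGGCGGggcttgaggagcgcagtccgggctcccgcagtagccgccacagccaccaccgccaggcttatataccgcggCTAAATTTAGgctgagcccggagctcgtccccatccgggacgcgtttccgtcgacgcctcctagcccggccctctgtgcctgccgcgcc
Klf6: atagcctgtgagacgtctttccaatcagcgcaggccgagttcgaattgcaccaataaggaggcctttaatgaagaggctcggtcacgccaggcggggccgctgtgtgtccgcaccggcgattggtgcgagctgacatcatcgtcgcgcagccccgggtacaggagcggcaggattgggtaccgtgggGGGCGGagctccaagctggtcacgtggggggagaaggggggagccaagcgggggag
Klf9: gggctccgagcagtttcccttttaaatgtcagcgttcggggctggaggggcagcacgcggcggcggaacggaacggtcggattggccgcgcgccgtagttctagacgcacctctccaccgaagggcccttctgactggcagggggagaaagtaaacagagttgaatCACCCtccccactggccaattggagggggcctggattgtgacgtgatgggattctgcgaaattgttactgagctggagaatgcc
Motifs were counted on both strands in the 250 bases before each RefSeq start. GGGCGG was found in 7 of the 8 members and in 32.7% of 32851 promoters of the same length, and CACCC in 6 of the 8 and in 52% of all promoters. The printed Klf2 window leaves out the last 29 of these bases, which hold its CACCC. In the windows printed above no marked motif overlapped another. The MEF2 consensus was present in Klf2 alone of the 8, with its first base 118 bases before the RefSeq start, which is 89 bases before the end of the printed window, and in 0.508% of all promoters. Of the other motifs counted, CACGTG was found in 3 of the 8 (6.02% of all promoters), CCAAT in 4 (33.8%) and the cAMP response element TGACGTCA in 0 (1.55%). Klf6 held CCAAT at 4 positions, Klf9 at 3 and Klf2 at none. A match is a description of the sequence and says nothing about binding in these cells.

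Klf6, Klf9 and Klf2 made up most of the family's signal in every library, but which of them led changed from library to library. FPKM is scaled to gene length, so levels can be set side by side. The mean level in control was 201 ± 119 FPKM for Klf6, 60.4 ± 52.9 for Klf9, 28.7 ± 20.05 for Klf2, 8.31 ± 2.18 for Klf4 and 3.44 ± 4.94 for Klf7 (SD, n = 4). Klf10 (0.717 ± 0.182), Klf13 (0.565 ± 0.655), Klf3 (0.146 ± 0.201) and Klf15 (0.104 ± 0.0967) were below 1 FPKM in control, and Klf5 had no read. In that order, each gene's range over the 4 control libraries overlapped the range of its neighbour. In exercise the mean levels were 587 ± 384 FPKM for Klf6, 255 ± 411 for Klf2, 70.6 ± 110 for Klf9, 4.43 ± 1.77 for Klf4, 0.902 ± 0.938 for Klf7, 0.599 ± 0.224 for Klf3 and 0.0599 ± 0.12 for Klf13 (SD, n = 4). The neighbours whose ranges did not overlap in exercise were Klf4 and Klf7, at 2.28 to 6.58 against 0 to 2.21 FPKM, and Klf3 and Klf13, at 0.309 to 0.836 against 0 to 0.240 FPKM. For Klf2, Klf7, Klf9 and Klf13 the SD in exercise was larger than the mean. Without exercise 4 the exercise mean of Klf2 was 53.2 FPKM.

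**Figure D1:**
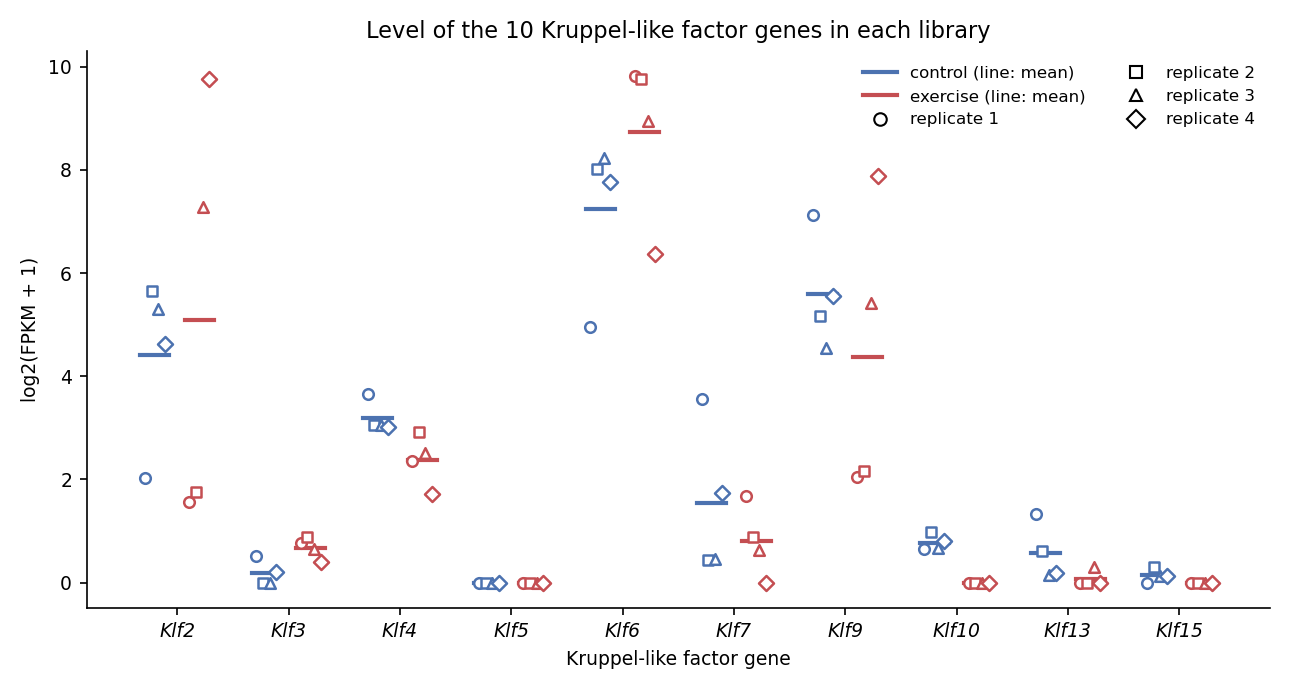
Level of each of the 10 genes, as log2(FPKM + 1), in the 4 control (blue) and 4 exercise (red) libraries, with the replicate number given by the marker shape and the group mean by a line. Klf2 spans 1.94 to 862 FPKM in exercise, Klf4 alone of the genes tested has groups that do not touch (they overlap as RPM), and Klf5 lies at 0 throughout.

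Klf6, at 70.9% to 98.7% of the summed FPKM of the 10 genes, led in 6 libraries: control 2, 3 and 4 and exercise 1, 2 and 3. In control 1 Klf9 held 70.6% of the sum and Klf6 15.2%. In exercise 4 Klf2 held 73.0%, Klf9 19.8% and Klf6 6.96%. The summed level of the 10 was 196, 353, 368 and 298 FPKM in control 1 to 4 and 914, 883, 699 and 1181 FPKM in exercise 1 to 4. On this scale the exercise libraries all lay above the control libraries, with Klf6 as the main part in exercise 1 to 3 and Klf2 in exercise 4. As RPM the sum was 714, 1583, 1921 and 1706 in control 1 to 4 and 6338, 6102, 2425 and 680 in exercise 1 to 4, so that exercise 4 was then below every control library. The RPM total includes mitochondrial reads, 68.7% of those of exercise 4 against at most 15.3% in control. The low place of exercise 4 therefore holds for RPM only. In bulk libraries of this kind, fewer cells of a type and less RNA per cell cannot be told apart.

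**Figure D2:**
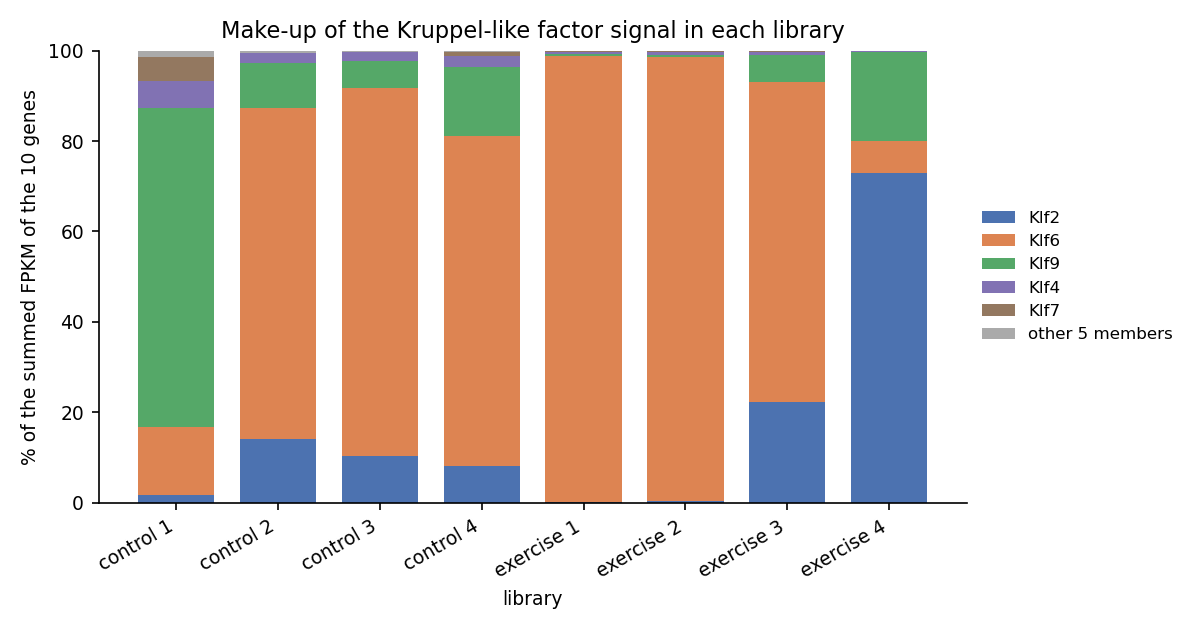
Share of each gene in the summed FPKM of the 10 Kruppel-like factor genes (vertical axis, in %), 1 bar per library. Klf6 fills 98.7% and 98.4% of the bars of exercise 1 and 2, Klf9 leads in control 1 (70.6%) and Klf2 in exercise 4 (73.0%).

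Klf6 (chromosome 13, 5861482 to 5870394, mm10), an early response activator named for its core promoter element binding, was the most abundant member. It had 29.8, 259, 299 and 217 FPKM in control 1 to 4 and 902, 869, 495 and 82.2 FPKM in exercise 1 to 4, from 104 to 6621 reads per library. Exercise 1, 2 and 3 lay above every control library, while exercise 4 lay below control 2, 3 and 4, so the groups overlapped. As RPM exercise 4, at 90, lay below every control library, of which control 1 was lowest at 128 (exact permutation p = 0.486). That place depends on the mitochondrial reads in the total. Of the reads outside the mitochondrial genome, Klf6 held 104 of 362038 in exercise 4 and 300 of 2290971 in control 1, a lower share in control 1. The log2 fold change, exercise minus control on the log2(FPKM + 1) scale, was 1.49 ± 1.01 (SE, 95% interval -0.77 to 3.74), with a limma adjusted p of 0.237 over all genes tested and a two-sided exact permutation p of 0.257. Without exercise 4 the difference was 2.27 (limma adjusted p = 0.0670). With exercise 1 and 2 averaged and control 4 and exercise 3 left out it was 1.02 (limma adjusted p = 0.672).

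Klf7 (chromosome 1, 64029447 to 64122282), the member closest to Klf6 and known for its part in neurons and fat cells, had 10.7, 0.361, 0.378 and 2.31 FPKM in control 1 to 4. In exercise 1 to 4 it had 2.21, 0.848, 0.555 and 0 FPKM, from 30, 11, 5 and 0 reads. Control 1 alone held 200 of the 296 control reads, and the other 3 control libraries overlapped the exercise libraries. The log2 fold change was -0.75 ± 0.78 (SE, 95% interval -2.49 to 1.0, limma adjusted p = 0.437, exact permutation p = 0.457), and -0.82 with exercise 1 and 2 averaged and control 4 and exercise 3 left out (limma adjusted p = 0.690). Without control 1 the gene fell below the limit for testing. A count of 0 in exercise 4 allows up to 1.28 FPKM, above the values of control 2 and 3.

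Klf2 (chromosome 8, 72319033 to 72321656), the flow-induced regulator of endothelial cells and of T cell quiescence, had the widest spread of all. Its level was 3.07, 49.5, 38.3 and 23.8 FPKM in control 1 to 4 and 1.94, 2.38, 155 and 862 FPKM in exercise 1 to 4. Exercise 4 was 444-fold above exercise 1 in FPKM and 70.1-fold in RPM, and on the FPKM scale the exercise libraries lay on both sides of the whole control range. As RPM exercise 1 and 2, at 5.67 and 6.92, lay just above control 1, at 5.56 (exact permutation p = 0.943). The log2 fold change was 0.69 ± 1.82 (SE, 95% interval -3.38 to 4.76, limma adjusted p = 0.769, exact permutation p = 0.743). Its direction rested on single libraries, since it was -0.87 without exercise 4, -0.11 without control 1 and -0.05 without exercise 3. When control 4 and exercise 3 were dropped and exercise 1 and 2 averaged it was 1.38 (limma adjusted p = 0.691).

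The high Klf2 values of exercise 3 and 4 rested on 318 and 459 reads, against 6 and 7 reads in exercise 1 and 2. As RPM, Klf2 had 265 and 397 in exercise 3 and 4, so the order of the exercise libraries was the same on that scale and the gaps to exercise 4 smaller. The limit set by a count of 0 (3 reads) for Klf2 was 0.408 to 0.708 FPKM in control, 0.971 in exercise 1 and 5.64 in exercise 4. The endothelial markers with reads did not move as one. Kdr, which encodes a VEGF receptor, had 0, 2994, 1669 and 1076 FPKM in control 1 to 4, the same order as Klf2, and 0.530, 0.347, 0 and 0 FPKM in exercise 1 to 4, and passed as lower (limma adjusted p = 0.0281). Tek, which encodes an angiopoietin receptor, made up nearly all of the list's 24.5, 26.2, 14.7 and 4.42 FPKM in exercise 1 to 4, lowest where Klf2 was highest, and passed as higher (limma adjusted p = 0.00395). Pecam1, Cdh5, Emcn, Egfl7, Esam, Cldn5 and Tie1 were at 0 in all libraries, and the sort removed cells with CD31, the product of Pecam1. Control 4 and exercise 3 stood near weighted sums of other libraries of their group, so shared or opposite orders here rest on fewer separate libraries. The part of Kdr-bearing cells in the control values of Klf2 was not tested.

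Klf4 (chromosome 4, 55527143 to 55532466), one of the reprogramming factors and a partner of Klf2 in endothelium, was the most even of the genes tested on the FPKM scale. It had 11.6, 7.28, 7.31 and 7.08 FPKM in control 1 to 4 and 4.12, 6.58, 4.73 and 2.28 FPKM in exercise 1 to 4. The 4 exercise libraries all lay below the 4 control libraries, although exercise 2 was close to control 4. Klf4 was thus 1 gene of the 5 tested with groups that did not overlap, against 31.6% of all genes tested in either direction and 24% in the lower direction. The log2 fold change was -0.82 ± 0.62 (SE, 95% interval -2.19 to 0.56), with a limma adjusted p of 0.284 and a two-sided exact permutation p of 0.0286, which is the lowest value possible for 4 against 4. That p takes the 8 libraries as separate, and with exercise 1 and 2 averaged and control 4 and exercise 3 left out the exact permutation p was 0.1, the lowest possible there, and the difference -1.06 (limma adjusted p = 0.604). As RPM the groups overlapped, at 25.5 to 34.6 in control and 1.73 to 31.6 in exercise (exact permutation p = 0.114), and with quantile normalization the difference was 0.79. Exercise 4 held 2 reads of Klf4, and the limit set by a count of 0 was 3.41 FPKM in that library.

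Klf5 (chromosome 14, 99298691 to 99313405), an activator of proliferating epithelial and smooth muscle cells, had 0 reads in all 8 libraries. A count of 0 allows up to 0.437 to 0.760 FPKM in the control libraries and 1.04 to 6.05 FPKM in the exercise libraries, so a low level was not detectable at this depth.

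Of the repressors that bind Sin3, Klf9 (chromosome 19, 23141226 to 23166911), a glucocorticoid and thyroid hormone response gene, varied from 0.341% to 70.6% of the family's FPKM. It ranked above Klf2 in control by a mean that control 1 carried, and without that library the means were 34.4 FPKM for Klf9 and 37.2 FPKM for Klf2. Its exercise mean was carried by exercise 4, and was 16.2 FPKM without it. It had 138, 35.0, 22.2 and 45.9 FPKM in control 1 to 4 and 3.12, 3.46, 42.0 and 234 FPKM in exercise 1 to 4. Exercise 1 and 2 lay below every control library and exercise 4 above every one in FPKM. As RPM exercise 1 to 4 had 16.1, 17.8, 127 and 190, and exercise 4 then lay below control 1 and 4, at 443 and 214 (exact permutation p = 0.171). Of the reads outside the mitochondrial genome, Klf9 held 220 of 362038 in exercise 4. That was a higher share than 1036 of 2290971 in control 1 and 597 of 2457801 in control 4. The log2 fold change was -1.22 ± 1.32 (SE, 95% interval -4.17 to 1.73, limma adjusted p = 0.450, exact permutation p = 0.486). It was -2.39 without exercise 4 (limma adjusted p = 0.0938) and -0.62 with exercise 1 and 2 averaged and control 4 and exercise 3 left out (limma adjusted p = 0.831).

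Klf10 (chromosome 15, 38294413 to 38300707), the TGF-beta inducible early gene, had 4, 9, 7 and 9 reads in control 1 to 4, or 0.573, 0.965, 0.589 and 0.742 FPKM, and 0 reads in each exercise library. No exercise library reached a control library, and the exact permutation p was again 0.0286 with the 8 libraries taken as separate and 0.1 with exercise 1 and 2 averaged and control 4 and exercise 3 left out, in each case the lowest possible. Of the genes above the limit for testing, 24% did not overlap in the lower direction. That share was not counted for genes as low as Klf10. The exercise libraries detected fewer genes, 2348 to 3289 against 5169 to 7307 in control. At the mean control level of 0.717 FPKM the 4 exercise libraries together would have held 10.2 reads, so the level in exercise was at least 3.40-fold lower, with the limit set at 3 reads over the group. That bound was 2.18-fold without exercise 1, 2.23-fold without exercise 2 and 1.40-fold with exercise 1 and 2 counted once and exercise 3 left out. By library the case was weaker, since a count of 0 allows up to 0.589 and 0.617 FPKM in exercise 1 and 2, just below the control mean, and 0.889 and 3.42 FPKM in exercise 3 and 4, above it. Klf10 was under the limit for testing. When genes with low values were kept, it was the one member to pass, with a limma adjusted p of 0.0333, and of the 9029 genes then tested 9.3% passed in either direction and 6.71% in the lower direction.

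Klf13 (chromosome 7, 63886351 to 63938915), a regulator of cytokine genes in T cells and of heart muscle genes, had 26, 12, 3 and 4 reads in control 1 to 4 and 0, 0, 2 and 0 reads in exercise 1 to 4. In FPKM that was 1.51, 0.520, 0.102 and 0.133 against 0.240 in exercise 3, so that exercise 3 lay above control 3 and 4. The rate of reads in exercise was 0.109 of that in control, with a 95% interval of 0.0128 to 0.416 that covers counting error only. Without control 1 it was 0.201 (0.0227 to 0.835). The exact permutation p was 0.0857.

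Klf3 (chromosome 5, 64803388 to 64832901), the CtBP-bound repressor, had more reads in the smaller exercise libraries than in control, 36 against 18. It had 11, 0, 0 and 7 reads in control 1 to 4 and 13, 15, 7 and 1 in exercise 1 to 4, or 0.427, 0, 0 and 0.156 against 0.692, 0.836, 0.562 and 0.309 FPKM. Exercise 1, 2 and 3 lay above all control libraries and exercise 4, with 1 read, between control 1 and control 4 (exact permutation p = 0.0571). As RPM exercise 4, at 0.865, lay below control 1 and 4, at 4.70 and 2.51 (exact permutation p = 0.114). Klf15 (chromosome 6, 90462576 to 90475238) had 0, 2, 1 and 1 reads in control 1 to 4 and 0 in all exercise libraries (exact permutation p = 0.143). At the control mean of 0.104 FPKM the exercise libraries would have held 1.35 reads in all, so a fall of Klf15 was not detectable at this depth.

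The members followed opposite orders over the exercise libraries. Exercise 1 and 2 were near copies, and exercise 3 stood near a weighted sum of exercise 1 and 4. An order over these libraries therefore mostly restates whether a gene was higher in exercise 4 or in exercise 1. Genes that share such an order are not separate evidence. Taken as RPM, Klf2 and Klf9 were highest in exercise 4, next in exercise 3 and low in exercise 1 and 2. Klf3, Klf4, Klf6 and Klf7 were highest in exercise 1 or 2 and lowest in exercise 4, where Klf6 fell from 6256 and 6020 RPM in exercise 1 and 2 to 90. Within control, Klf3, Klf4, Klf7, Klf9 and Klf13 were highest in control 1, where Klf2 and Klf6 were lowest. As RPM in exercise 1 to 4, Mef2c, which encodes a MEF2 factor, had 58.6, 47.4, 297 and 409, and Ckm, the muscle creatine kinase, 423, 428, 1529 and 1923, both highest in exercise 4 and next in exercise 3, as Klf2 and Klf9 were. Of the 8 myofibre markers detected in the exercise group, 3 followed this order as RPM and 6 as FPKM. The summed myofibre markers were 52996, 56079, 38855 and 33338 RPM, lowest in exercise 4, and 19592, 20864, 20737 and 59419 FPKM, highest there. The share of mitochondrial reads was also high in exercise 3 and 4, which lowers the RPM of all other genes there. The part of fibre RNA, of mitochondrial reads and of the preparation in these orders was not tested.

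Klf2, Klf6 and Klf9 stood close to the relation between libraries found in the other genes. In exercise 3 Klf2 had 265 RPM, against 271 for the weighted sum of exercise 1 and 4. Klf6 had 2009 against 1929 and Klf9 127 against 134. Klf4, from 16 reads, had 13.3 against 7.10, or 1.88-fold. In control 4 the 5 members with at least 10 reads had 0.936 to 1.12 of the weighted sum of control 1 and 3, although Klf7 differed between these libraries from 85.5 to 3.98 RPM. Members with fewer reads lay off the sum on either side. Below it were 4 reads of Klf13 in control 4 where the sum gives 10.7 (0.374 of it) and 5 reads of Klf7 in exercise 3 where it gives 10.2 (0.492 of it). Above it were Klf3, at 1.37 of the sum in exercise 3 and 1.90 in control 4, and Klf10 and Klf15 in control 4, each at 1.51.

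**Figure D3:**
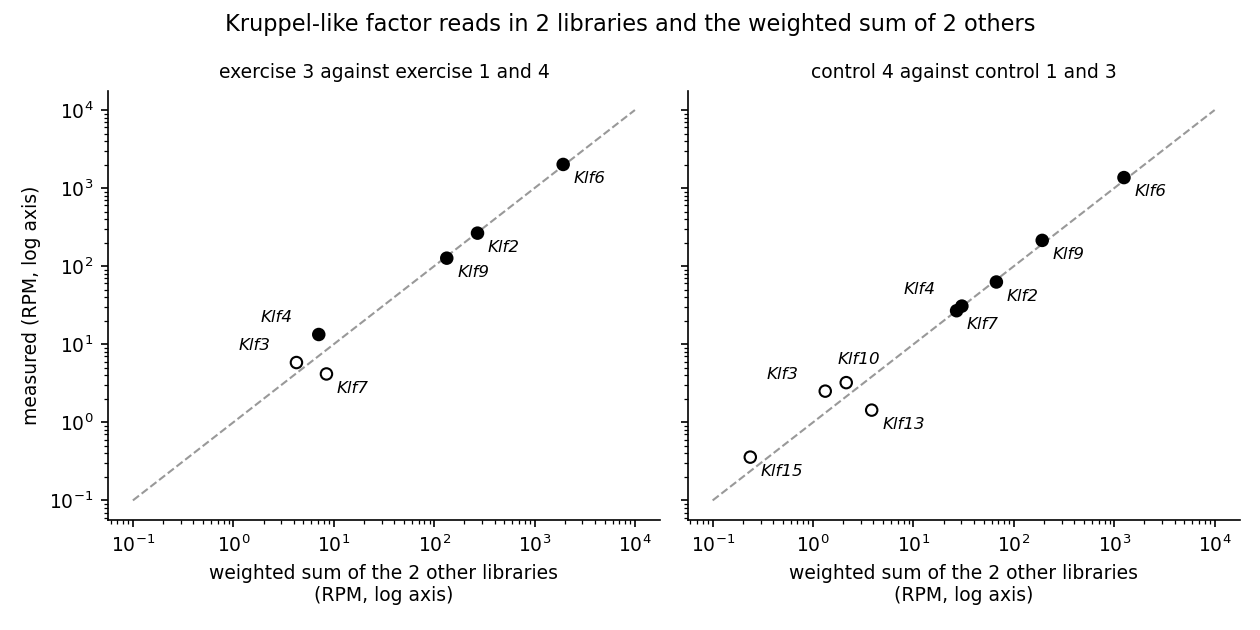
RPM of each gene measured in exercise 3 (left) and control 4 (right) against the weighted sum of the 2 libraries named, on log axes, with weights taken from other genes and the dashed line marking equality. Filled points have at least 10 reads and lie at 0.947 to 1.88 of the sum in exercise 3 and 0.936 to 1.12 in control 4, and open points have fewer reads.

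With all 8 libraries, 0 of the 5 members tested passed an adjusted p of 0.05 in limma, and 0 had an unadjusted p under 0.05. Both counts were also 0 with voom on the recovered reads, which kept the library sizes implied by the FPKM and so does not check that scaling. With FPKM rescaled to the read total both counts were 0 as well. Of all 4328 genes tested, 1541 passed, or 35.6%, of which 380 were higher (8.78% of those tested) and 1161 lower (26.8%), and 49.6% had an unadjusted p under 0.05. With quantile normalization 566 genes were higher and 375 lower, and with voom on the recovered reads 451 and 791. Leaving out any 1 library, 0 members passed in each of the 8 fits. The median log2 fold change was -0.75 for the 5 members and -1.42 for all genes tested. Set against that median, the members lay 2.90 (Klf6), 2.1 (Klf2), 0.67 (Klf7), 0.60 (Klf4) and 0.19 (Klf9) higher on the log2 scale. Klf6 lay above the median of all genes in each of the 23 alternative settings, Klf2 in 22, Klf4 in 21 and Klf9 in 15 of the 23, and Klf7 in 20 of the 21 that tested it. The settings refit the same libraries and are not separate tests. Those without the variance trend, with the replicate block or with the highest row of a symbol leave these differences unchanged.

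The intervals of Klf2 and Klf9 were wide. The 95% interval of the log2 difference was 8.14 wide for Klf2 and 5.9 for Klf9, against a median width of 3.77 over all genes tested, and 2.75 for Klf4. When limma was allowed to weight the libraries by their scatter, 3 members passed, Klf2 at -3.33 (adjusted p = 0.0222), Klf6 at 1.69 (adjusted p = 0.00259) and Klf9 at -2.63 (adjusted p = 0.00924). In that fit 68.8% of all genes passed, and Klf2 had the opposite sign to the fit with equal weights.

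**Figure D4:**
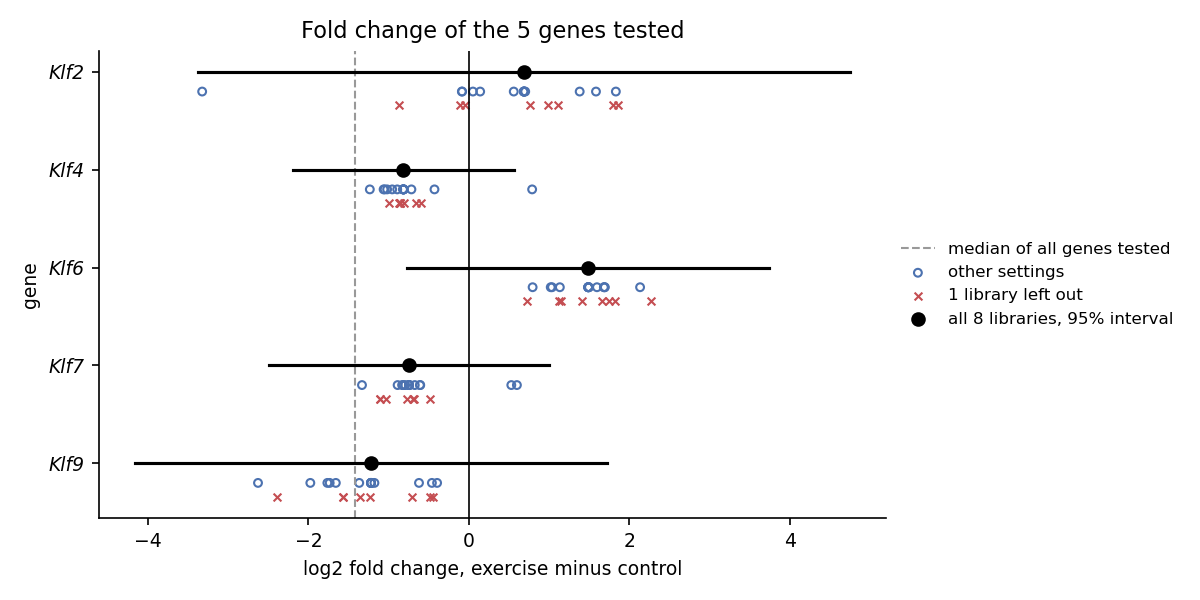
Log2 fold change, exercise minus control, of the 5 genes tested, with the 95% interval (black), the values when 1 library was left out (crosses) and under the other settings (circles). Voom used reads with the library sizes implied by the FPKM, and the rest log2 FPKM. All 5 black intervals cross 0, and Klf2 ranges from -3.33 to 1.86 over the settings.

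The genes around the family were taken from lists, whose counts stand against the 35.6% of all genes that passed, 8.78% higher and 26.8% lower. Each call below is from the fit of all 8 libraries, and 0 list genes passed with exercise 1 and 2 averaged and control 4 and exercise 3 left out. Of 7 other Kruppel-like factor genes, Klf11 alone had reads, with 47.4, 0, 0 and 7.69 FPKM in control and 0 in exercise, and did not pass (limma adjusted p = 0.145). Of 9 Sp genes, the nearest relatives, Sp1 alone was tested, with a log2 fold change of 0.01 (limma adjusted p = 0.990). Of 14 corepressor and coactivator genes 6 were tested, 1 was higher and 1 lower. Of the 2 Sin3 genes, Sin3a had 11.0, 0, 0 and 2.05 FPKM in control and 0 in exercise, and did not pass (log2 fold change -1.30, limma adjusted p = 0.176). Sin3b, a scaffold that Klf9, Klf10 and Klf13 can bind, was higher, with 0.697 to 1.47 FPKM in control and 138, 134, 71.3 and 7.08 in exercise (log2 fold change 4.76, limma adjusted p = 0.00772). Its order over the exercise libraries was close to that of Klf6. So was that of Myh11, a smooth muscle myosin gene, with 0 FPKM in each control library and 70.1, 71.5, 35.6 and 3.14 FPKM in exercise 1 to 4 (limma adjusted p = 0.00646). These shared orders mostly restate exercise 1 against exercise 4. In the smooth muscle and pericyte list, Acta2 had a mean of 19.8 FPKM in control and 1.08 in exercise (limma adjusted p = 0.220). Pdgfrb had 2.91 and 10.8 (limma adjusted p = 0.287), and Rgs5, Cspg4, Tagln, Cnn1 and Mcam had no reads. The part of such cells in the Klf6 values was not tested. Hdac3, a histone deacetylase, was lower, with 93.2, 14.8, 7.06 and 26.2 FPKM in control and 0 in each exercise library (limma adjusted p = 0.00417).

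Of the 7 genes of the ERK5 and MEF2 route to Klf2, 3 were tested and 1 was lower. That was Mapk7, which encodes ERK5, with 0, 37.6, 20.1 and 11.4 FPKM in control and 0 in exercise (limma adjusted p = 0.0371), and it followed the control order of Klf2. Mef2c did not pass (log2 fold change -0.49, limma adjusted p = 0.741). Of 9 glucocorticoid genes, a set that induces or accompanies Klf9 and Klf15, 7 were tested. Errfi1, a feedback inhibitor of EGF receptor signalling, was higher (log2 fold change 2.91, limma adjusted p = 0.0119) and Tsc22d3, which encodes the glucocorticoid-induced leucine zipper, was lower, at -4.78 (limma adjusted p = 0.00300). The receptor gene Nr3c1 gave -0.35 (limma adjusted p = 0.751).

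Of 10 TGF-beta genes, which act upstream of Klf10, 3 were tested and 2 were lower. Smad4, the shared Smad, had 312, 90.3, 51.3 and 91.2 FPKM in control and was listed at 0 in exercise (limma adjusted p = 0.000514), and Smad3 had 0.393 to 10.9 FPKM and 0 (limma adjusted p = 0.0327). Of 6 muscle targets of Klf15, 2 were tested and 0 passed, with the ubiquitin ligase gene Fbxo32 at -0.02 (limma adjusted p = 0.986). Of 16 immediate early genes known to rise when tissue is dissociated, all 16 were tested, 1 was higher and 2 lower. Ier3, with 49.7 to 1456 FPKM in control and 0 to 2.12 in exercise, and Atf3, with a log2 fold change of -2.45, were lower. Jund was higher at 3.89 (limma adjusted p = 0.0495), close to the threshold and with groups that overlapped, at 61.7, 1.17, 0.922 and 10.1 FPKM in control 1 to 4 and 278, 281, 130 and 12.5 FPKM in exercise 1 to 4. Fos, the most abundant of them, gave -1.62 (limma adjusted p = 0.0670).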

How the data were processed

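Satellite cell mRNA was sequenced from 4 control and 4 exercise mice, as grouped by the labels. The authors deposited FPKM per gene. The submitters' processing notes name Bowtie 0.12.9, Cufflinks 2.1.1, HTSeq and mm10, and the study describes 150-base reads and a DESeq2 test on counts. The values were whole multiples (tolerance 0.001) of 1 read for 100% of entries, so reads per gene were recovered, 1011737 to 3013354 per library. Amplified reads are not independent molecules, and limits set by a count of 0 (3 reads) cover counting error only. The FPKM imply a library size of their own, 288190 fragments in exercise 4 against 1155592 reads on genes, and how it was set is not given in the sources used here.

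The 52636 rows were summed to 52535 symbols. Those whose mean was 1 FPKM or more were tested on the log2(FPKM + 1) scale in limma 3.58.1 (R 4.3.3, trended variance, no covariates), with Benjamini-Hochberg adjusted p-values over all 4328 genes, and the script was tested on simulated data. A fold change on this scale understates the change of low genes. Single genes were also tested by an exact two-sided permutation over the 70 assignments of 8 libraries. Replicates are as labelled, and if they are not separate mice the p-values measure technical spread only. Weights relating exercise 3 and control 4 to other libraries came from genes detected in one of them only. The 10 members and all gene lists were chosen with earlier results of these data known. List genes were named by a rule, those with an adjusted p under 0.05, at most 4, and the 2 of highest mean FPKM, and some of the latter are left out. Alternatives covered the pseudocount (0.1), filters, scaling, quantile normalization, library weights, variance trend, voom on recovered reads, equal depth, the replicate block and leaving out libraries. The permutation without near copies and mixtures, the Klf13 ratio without control 1, the Klf10 bound with fewer libraries, the Klf2 and Klf9 means without exercise 4 and the marker orders as RPM were added after seeing the data. Coding stretches came from GENCODE M21 transcripts and promoters from RefSeq (GRCm38.p6), and 95.2% of the gene IDs found in GENCODE M21 had the same coordinates there, Klf5, Klf9 and Klf10 not among them. Protein sequences were not used here.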

Additional observations from a re-analysis of the deposited data

Results flagged for a closer look

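In 16 groups of 4 libraries, 1 member in 1 group each, 3 had a library far from the other 3 of its group. For values with even scatter chance gives about 1 such group in 20, a rate that does not hold for values near 0 reads or of unequal scale. Klf4 was 11.6 FPKM in control 1, against 7.08 to 7.31 FPKM in control 2 to 4. Klf9 was 234 FPKM in exercise 4, against 3.12 to 42.0 FPKM in exercise 1 to 3. As RPM neither library stood apart in this way. Klf13 was 0.240 FPKM in exercise 3, from 2 reads, and 0 in the other 3 exercise libraries, and 1 value above 0 beside 3 at 0 always meets the rule used.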

How the results depend on the processing

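The count of members that passed, 0 of 5, was 0 in 21 of the 23 alternatives, 1 (Klf10) with no filter on low values and 3 with library quality weights. Klf6 and Klf9 kept their direction in all 23 settings, which refit the same libraries and are not separate tests. Klf2 was -3.33 with library weights, -0.085 with a constant sum of FPKM, -0.088 with voom at equal depth, and -0.11, -0.05 and -0.87 without control 1, exercise 3 and exercise 4, within -0.87 to 1.86 when any 1 library was left out. Klf4 was 0.79 with quantile normalization, and Klf7 was 0.60 there and 0.53 with library weights. The count of all genes that passed, 1541, was 840 with no filter, 941 with quantile normalization, 2978 with library weights, 596 when exercise 1 and 2 were averaged and 0 when control 4 and exercise 3 were dropped as well. Leaving out 1 library gave 0 to 0 members and 527 to 1899 genes, with 1003, 804, 569, 578, 599 and 527 without control 2, 3 and 4 and exercise 1, 2 and 3. Of the list genes, cell type markers not counted, 10 passed, 23 with library weights, 5 under that averaging, 0 when the 2 libraries were dropped as well, and 5 to 12 without 1 library, with 6 without control 2, control 3, control 4 or exercise 3 and 5 without exercise 1 or exercise 2. Fewer samples enter the fits that leave libraries out, and more genes the fit with no filter. The cause of the other shifts was not tested. Replicate numbers did not pair the samples, since the deviations of same-numbered libraries correlated at -0.02 to 0.04. With the replicate block 0 members and 1059 genes passed. Depth limits Klf3, Klf5, Klf10, Klf13 and Klf15, which had 0 to 15 reads per exercise library.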
